A study of Mus musculus with 23 samples.

Results

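Striatal interneuron marker genes were followed in the mouse nucleus accumbens. They comprised 10 genes, chosen by name as markers of the interneuron classes of the striatum, out of 22180 genes that had a probe set of their own on the array. The cholinergic genes were Chat, Slc5a7 and Slc18a3, the genes of the somatostatin class were Sst, Npy and Nos1, and the remaining 4 were Pvalb, Kit, Lhx6 and Th. Each of the 10 was read by 1 probe set. Values are log2 intensities as deposited, one per probe set and array.

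The series comprised 23 whole-transcript arrays of micropunched nucleus accumbens, in the ventral striatum, from C57BL/6 mice of about 15 weeks. Every mouse had received an adeno-associated virus (AAV) in this region about 5 weeks before, with a hairpin RNA either against Nr1d1 (knockdown) or scrambled (control). There were 5 control and 6 knockdown arrays of females and 6 control and 6 knockdown arrays of males, all described as biological replicates. The promoter of the hairpin, the cells the virus reached and the hour of collection were not stated in the labels. The treatment text also gives day 7 after birth of a litter for all samples, males included, and reproductive state was therefore not used.

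Most striatal neurons are medium spiny projection neurons, and interneurons are a small minority of the cells. Cholinergic interneurons are large, tonically active cells that supply acetylcholine within the striatum. Another class makes somatostatin, neuropeptide Y and nitric oxide in the same cells, and a further class of fast-spiking cells makes parvalbumin. These classes arise largely from the medial ganglionic eminence of the embryo, where the transcription factors Nkx2-1 and Lhx6 act in their specification. In a punch of tissue, fewer cells of a class and less RNA per cell cannot be told apart.

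The targeted gene was examined first. Nr1d1, which encodes the circadian repressor REV-ERBα, stood at 10.05, 10.06, 10.09, 9.93 and 10.09 in the control females and at 9.73 to 10.17 (median 9.98) in the females labelled knockdown. In males it ran from 9.42 to 9.85 (median 9.50) in controls and from 9.44 to 9.76 (median 9.57) in the arrays labelled knockdown. The groups overlapped in both sexes, and the difference was −0.05 in females (SE 0.09, 95% interval −0.24 to 0.13) and −0.01 in males (SE 0.09, interval −0.19 to 0.17), with limma adjusted p of 0.963 and 0.997. The measured level thus did not separate the labels, and the groups are called arrays labelled knockdown throughout.

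All 23 arrays entered a linear model with 1 mean per group (limma), and adjusted p is the Benjamini-Hochberg value over the 41345 probe sets, called past the threshold under 0.05. The medians of the female arrays (6.11 to 6.17) and of the male arrays (5.84 to 5.88) formed separate narrow bands, as if normalized apart, although no label names a run or batch. A difference in level between the sexes and one of normalization cannot be told apart, and none was tested. Of all probe sets, 0% passed in females, 0% in males, 0% in the average of both sexes and 0% in the difference between them. At an unadjusted p under 0.05, 5.86% of probe sets (2423) passed in females and 4.71% (1948) in males. Among male controls the mean of 10 measured medium spiny neuron genes was lowest in replicates 1 (10.23) and 6 (10.27). The other 4 stood at 10.51 to 10.58, and covariation results are therefore also given without control replicates 1 and 6. Male knockdown replicate 6 was low as well, at 10.36 against 10.56 to 10.66 in the rest of its group. That array stayed in when the control replicates were left out together.

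Against this background 0 of the 10 interneuron genes passed in either sex, in the average or in the difference between the sexes. The lowest adjusted p among them by limma was 0.856 in females and 0.996 in males. In each sex 3 of the 10 were higher and 7 lower in the arrays labelled knockdown. The median difference was −0.07 in each sex, while the median over all genes was 0.00033 in females and 0.0033 in males. Without adjustment, 0 of 10 had p under 0.05 in females and 1 of 10 in males, Nos1. The standard errors of the 10 differences lay between 0.07 and 0.16 in females and between 0.06 and 0.15 in males.

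**Figure D1:**
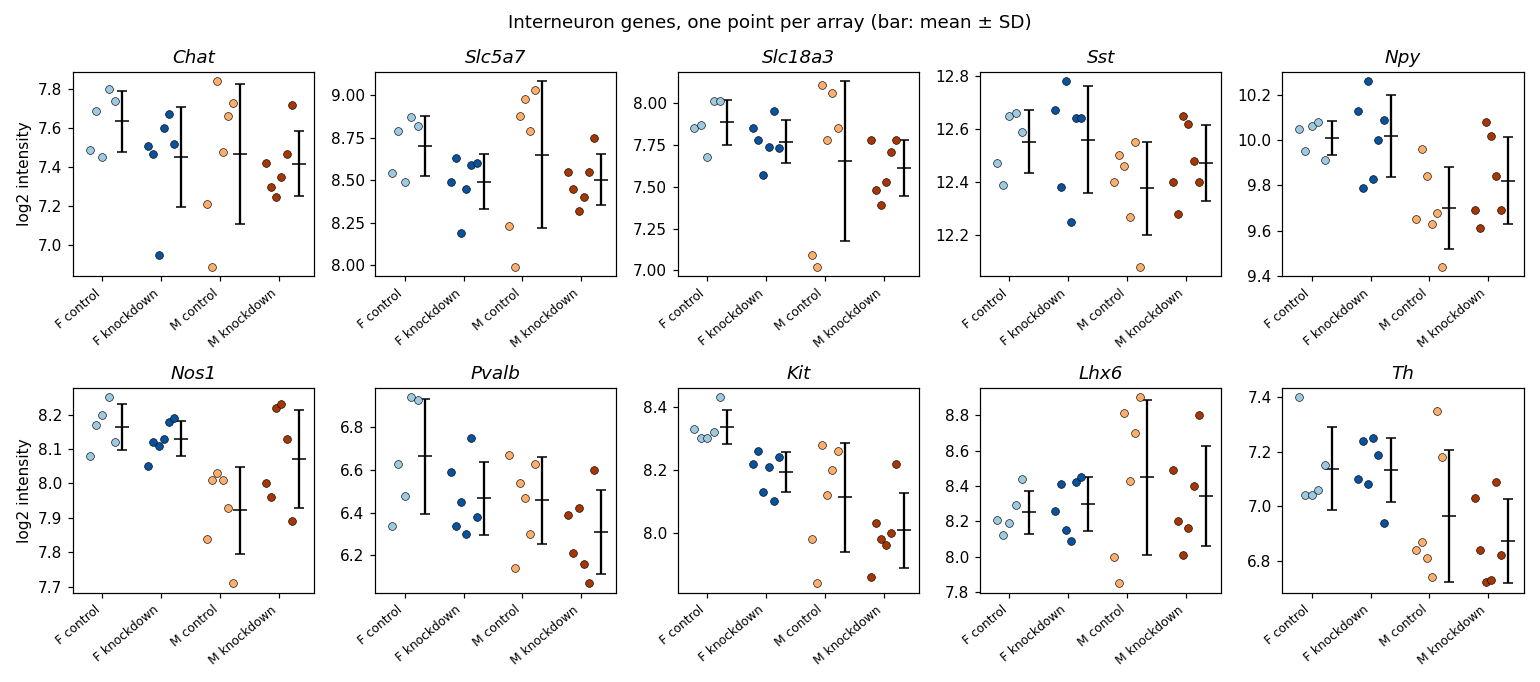
Log2 intensity of the 10 interneuron genes (vertical axes, each panel with its own scale) in the 23 arrays of 4 groups (F, female; M, male; horizontal axis), 1 point per array, with bars for the group mean ± SD. Among male controls, replicates 1 and 2 are the lowest for Slc5a7 (8.23 and 7.99), Slc18a3 (7.09 and 7.02) and Lhx6, and Kit is the gene whose female groups do not overlap.

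Chat encodes choline acetyltransferase, the enzyme that makes acetylcholine, and Slc18a3 encodes the vesicular transporter that loads it into synaptic vesicles. The Slc18a3 gene lies inside the span of Chat on the same strand, and the annotated starts are 1059 bases apart, an arrangement known as the cholinergic gene locus. As these genes overlap, how far their probe sets read separate transcripts is uncertain. The promoter windows of both are shown since these genes moved together over the arrays. Each window runs from 250 bases before to 50 bases after the annotated start on the minus strand, from RefSeq, build GRCm38.p6, at chr14:32465860-32466159 for Chat and chr14:32464801-32465100 for Slc18a3. The capitals mark the E-box CACGTG, the element bound by the clock activators, 98 bases before the start of Chat.
Chat: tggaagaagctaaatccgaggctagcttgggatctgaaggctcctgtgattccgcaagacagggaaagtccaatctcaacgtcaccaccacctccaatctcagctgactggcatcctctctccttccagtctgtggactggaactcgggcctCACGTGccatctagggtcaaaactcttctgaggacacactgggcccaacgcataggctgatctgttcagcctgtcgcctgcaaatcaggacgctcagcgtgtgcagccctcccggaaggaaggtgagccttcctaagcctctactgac
Slc18a3: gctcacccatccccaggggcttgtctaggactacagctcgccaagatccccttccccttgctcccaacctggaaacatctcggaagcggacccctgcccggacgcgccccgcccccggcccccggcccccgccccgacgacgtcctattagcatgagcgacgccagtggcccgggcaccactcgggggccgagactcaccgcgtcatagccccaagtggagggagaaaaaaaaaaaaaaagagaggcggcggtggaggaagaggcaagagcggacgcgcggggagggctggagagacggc

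Chat stood at 7.49, 7.69, 7.45, 7.80 and 7.74 in control females and between 6.95 and 7.67 (median 7.52) in females labelled knockdown. Male controls ran from 6.89 to 7.84 (median 7.57) and males labelled knockdown from 7.25 to 7.72 (median 7.39). The groups overlapped in both sexes, with the low end of the knockdown females set by replicate 3 (6.95) and that of the male controls by replicates 2 (6.89) and 1 (7.21). The difference was −0.18 in females (SE 0.14, 95% interval −0.48 to 0.12) and −0.05 in males (SE 0.14, interval −0.34 to 0.24), and limma gave adjusted p of 0.910 and 0.996. In percent, the female interval runs from −28.3% to 8.55%.

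Slc18a3 stood at 7.85, 7.87, 7.68, 8.01 and 8.01 in control females and between 7.57 and 7.95 (median 7.76) in females labelled knockdown. In males the ranges were 7.02 to 8.11 (median 7.82) in controls and 7.39 to 7.78 (median 7.62) in the arrays labelled knockdown. Both pairs of groups overlapped, and the differences of −0.11 in females (SE 0.16) and −0.04 in males (SE 0.15) were within their errors (limma adjusted p 0.954 and 0.996).

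Slc5a7 encodes the high-affinity choline transporter, which returns choline to the terminal and limits the rate of acetylcholine synthesis. Its level was 8.54, 8.79, 8.49, 8.87 and 8.82 in control females and 8.19 to 8.63 (median 8.54) in females labelled knockdown. Male controls spanned 7.99 to 9.03 (median 8.84) and males labelled knockdown 8.32 to 8.75 (median 8.50). All 6 females labelled knockdown lay below the mean of the control females, but the groups overlapped. The difference was −0.21 in females (SE 0.15, 95% interval −0.52 to 0.10) and −0.15 in males (SE 0.14, interval −0.44 to 0.15), and neither passed by limma (adjusted p 0.892 and 0.996).

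Within the groups the 3 cholinergic genes rose and fell together. Correlations here are of each array's deviation from its group mean, over 23 arrays, with p from permutation of arrays within groups (100000 resamples, two-sided). The family held 45 pairs of interneuron genes, of which 16 had p under 0.05 for Pearson's r, and these p are not adjusted. The share of all pairs of genes with p under 0.05 was not counted, so counts of pairs are not particular to these genes. The 95th percentile of absolute r with all genes ran from 0.459 for Pvalb to 0.632 for Lhx6, with 0.599 for Chat. Chat and Slc5a7 gave r = 0.88 (permutation p = 3e-05) and Spearman's rho = 0.84 (p = 5e-05). Chat and Slc18a3 gave r = 0.86 (p = 1e-05, the smallest these permutations can give) and rho = 0.85 (p = 2e-05). The relation of Slc5a7 to Slc18a3 was of the same size, with r = 0.88 (permutation p = 0.00026) and rho = 0.87 (p = 7e-05).

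These relations were positive in each sex alone. For Chat and Slc5a7, r was 0.86 in the 11 female arrays (permutation p = 0.0088) and 0.91 in the 12 male arrays (p = 0.0015), and for Chat and Slc18a3 it was 0.83 (p = 0.00198) and 0.92 (p = 0.0001). By rank, Chat and Slc5a7 gave rho = 0.63 in females (permutation p = 0.0562) and 0.88 in males (p = 0.00273). Chat and Slc18a3 gave rho = 0.77 in females (permutation p = 0.0127) and 0.93 in males (p = 0.00031). Over both sexes, r stood at 0.82 and 0.85 without the 2 arrays farthest from the median of Chat, female knockdown replicate 3 and male control replicate 2. After the level of Slc17a7, a marker of cortical tissue, had been taken out by regression, they were 0.74 and 0.68, and Slc5a7 with Slc18a3 gave 0.71.

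**Figure D2:**
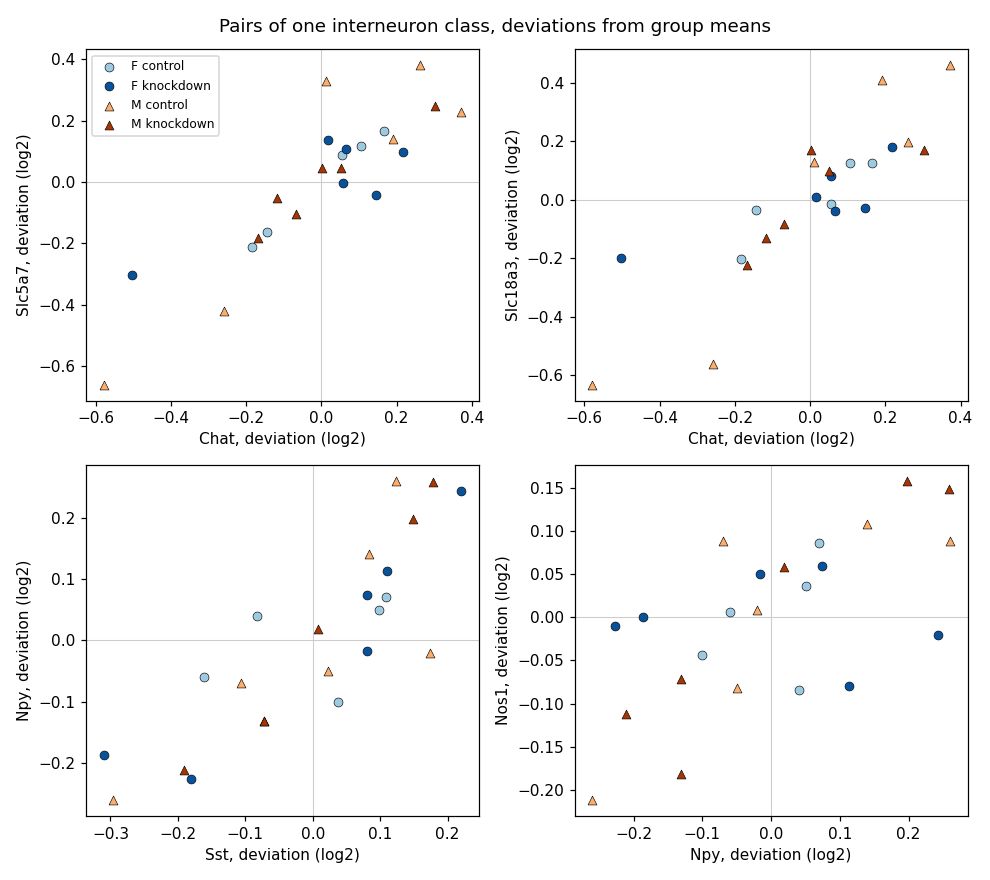
Deviations from the group mean (log2) for pairs of genes of one interneuron class, 1 point per array, coloured by group (F, female; M, male). Points follow a rising diagonal for Chat with Slc5a7 (r = 0.88), Chat with Slc18a3 (r = 0.86) and Sst with Npy (r = 0.85), while for Npy with Nos1 (r = 0.65) the female circles scatter.

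Chat was then used as a reference in a fit across all probe sets, with its level as a covariate beside the group means. A slope is the log2 change of a gene per 1 log2 unit of Chat. Of the other 9 interneuron genes 4 passed, all with positive slopes, against 0.718% of all other probe sets with a positive slope past the threshold (297 of 41344) and 0.486% with a negative one (201). Slc5a7 had a slope of 0.92 (SE 0.11, limma adjusted p 0.00101) and Slc18a3 one of 0.94 (SE 0.13, adjusted p 0.00144). Lhx6 followed at 0.91 (SE 0.15, adjusted p 0.00575) and Kit at 0.34 (SE 0.08, adjusted p 0.0375). Sst, Npy and Nos1 had slopes of −0.21, −0.32 and −0.07, with limma adjusted p of 0.588, 0.303 and 0.846.

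Some calls changed when single arrays were left out. Without male control replicate 2, which had the lowest Chat value, the count fell to 2 of 9, and Lhx6 (limma adjusted p 0.0766) and Kit (0.274) no longer passed. The slope of Lhx6 was then 0.85, the lowest of its range of 0.85 to 1.12 over all single arrays left out, and that of Kit 0.27. Kit also missed the threshold on leaving out any of 9 other single arrays, with limma adjusted p of 0.0509 to 0.0942, and it gave 0.13 without male control replicates 1 and 6 together. The count of probe sets past the threshold ran from 20 without male control replicate 2 to 720. In the female arrays alone 0 probe sets and 0 of the 9 genes passed, whereas male arrays alone gave 259 probe sets and 4 of the 9 genes. The difference of slopes between the sexes did not pass for any of the 9, with a lowest limma adjusted p of 0.538 for Lhx6 (0.99, SE 0.23, male minus female). With Slc17a7 as a further covariate 0 probe sets passed, and the slopes were 0.74 for Slc5a7 (SE 0.17), 0.71 for Slc18a3 (SE 0.18), 0.41 for Lhx6 (SE 0.17) and 0.11 for Kit (SE 0.10).

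Other genes of cholinergic neurons followed Chat in part. Of 11 measured genes in that list, 4 passed with a positive slope and 0 with a negative one. They were Lhx8, a transcription factor of cholinergic fate (slope 1.09, SE 0.21, limma adjusted p 0.0143), Ngfr, a neurotrophin receptor (0.80, SE 0.16, adjusted p 0.0141), Ecel1, a membrane endopeptidase (0.64, SE 0.08, adjusted p 0.00101), and Slc10a4, a protein of cholinergic and monoaminergic vesicles (0.60, SE 0.12, adjusted p 0.0148). Ache, acetylcholinesterase, had a slope of 0.39 (SE 0.11, adjusted p 0.0869 by limma) and Isl1, a transcription factor, one of 0.64 (SE 0.16, adjusted p 0.0503). Tacr1 (0.47, limma adjusted p 0.0866) and Chrm2 (0.72, adjusted p 0.169) did not pass either. Slc17a8 (0.03, limma adjusted p 0.94), Gbx2 (−0.002, adjusted p 0.998) and Zic4 (−0.05, adjusted p 0.933) did not follow Chat. The median slope over the 11 was 0.60, beside −0.0057 over all genes. Calls with Chat as reference were not confined to cholinergic genes. Gad2 and Slc32a1 (2 of 3 measured genes of GABA synthesis and packaging) and Nkx2-1, Elfn1 and Lhx6 (3 of 10 developmental genes) passed with positive slopes. Vip, Cck and Ndnf (3 of 10 genes of other interneuron classes) and 5 of 8 cortical excitatory neuron genes, Slc17a7 among them (−4.68, SE 0.92, limma adjusted p 0.0143), passed with negative ones. Npy2r (1.21, SE 0.25, limma adjusted p 0.0172) passed with a positive slope among 10 receptors and partners of the somatostatin class. So did Gpr149 (0.53, limma adjusted p 0.0155) among 7 other Pvalb genes and Dbp (0.44, adjusted p 0.0282) among 9 clock genes. Nr4a2 (−2.59, limma adjusted p 0.00575) passed with a negative slope among 10 dopamine neuron genes. The 10 measured medium spiny neuron genes had 0 calls and a median slope of 0.0052.

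The 5 genes most like Chat over the 23 arrays, by Pearson's r of deviations from group means among 22179 genes, were Ecel1 (0.90), Ampd3 (0.90), Tacr3 (0.89), Slc5a7 (0.88) and Abraxas1 (0.87). Slc18a3 held rank 10 and Lhx6 rank 30, while Sst, Npy and Nos1 lay at ranks 18697, 20926 and 15047. The median absolute r of Chat with all genes was 0.217. For Slc5a7 the nearest were Tacr3 (0.92), Ankrd55 (0.90) and Gpr165 (0.90), and for Slc18a3 they were P4ha3 (0.91), Fnbp4 (0.91) and Tmem47 (0.90). Tacr3 encodes the neurokinin 3 receptor. These likenesses are descriptions of genes read from the same punches.

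Sst encodes somatostatin and Npy neuropeptide Y, inhibitory peptides that the same striatal interneurons release. The promoter windows are shown because, among pairs within 1 class, these genes formed the tightest outside the cholinergic class. They are from RefSeq, build GRCm38.p6, on the minus strand at chr16:23890795-23891094 for Sst and on the plus strand at chr6:49822460-49822759 for Npy, with the same bounds around the annotated start. The capitals mark the cAMP response element TGACGTCA, 48 bases before the start of Sst, and none of the motifs searched lies in the window of Npy.
Sst: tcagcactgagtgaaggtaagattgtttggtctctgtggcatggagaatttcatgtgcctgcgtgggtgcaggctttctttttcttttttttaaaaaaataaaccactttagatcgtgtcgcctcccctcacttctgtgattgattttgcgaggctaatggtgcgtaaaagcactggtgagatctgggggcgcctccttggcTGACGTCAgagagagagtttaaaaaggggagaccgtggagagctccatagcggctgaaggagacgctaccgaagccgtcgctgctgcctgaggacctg
Npy: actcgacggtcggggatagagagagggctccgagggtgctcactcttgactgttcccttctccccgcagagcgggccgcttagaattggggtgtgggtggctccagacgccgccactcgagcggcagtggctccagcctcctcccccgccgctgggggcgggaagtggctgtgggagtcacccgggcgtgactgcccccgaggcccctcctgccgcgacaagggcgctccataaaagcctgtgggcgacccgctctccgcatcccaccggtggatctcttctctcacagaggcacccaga

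Sst stood at 12.47, 12.39, 12.65, 12.66 and 12.59 in control females and between 12.25 and 12.78 (median 12.64) in females labelled knockdown. Males ran from 12.08 to 12.55 (median 12.43) in controls and from 12.28 to 12.65 (median 12.44) in the arrays labelled knockdown. The groups overlapped almost entirely, with differences of 0.008 in females (SE 0.10, 95% interval −0.19 to 0.21) and 0.10 in males (SE 0.09, interval −0.10 to 0.29), and limma adjusted p of 0.997 and 0.996.

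For Npy the control females stood at 10.05, 9.95, 10.06, 10.08 and 9.91 and the females labelled knockdown between 9.79 and 10.26 (median 10.05). The male ranges were 9.44 to 9.96 (median 9.67) and 9.61 to 10.08 (median 9.77). The knockdown females spread to both sides of the controls, and the differences were 0.0067 in females (SE 0.10) and 0.12 in males (SE 0.09), with limma adjusted p of 0.997 and 0.996.

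Nos1 encodes neuronal nitric oxide synthase, which makes nitric oxide in the Sst and Npy cells. It stood at 8.08, 8.17, 8.20, 8.25 and 8.12 in control females and at 8.05 to 8.19 (median 8.13) in females labelled knockdown. In males it ran from 7.71 to 8.03 (median 7.97) in controls and from 7.89 to 8.23 (median 8.07) in the arrays labelled knockdown. Of the latter, 5 of 6 lay above the control mean, and the groups overlapped. The male difference of 0.15 (SE 0.06, 95% interval 0.02 to 0.28) had an unadjusted p of 0.0256 by limma, beside 4.71% of all probe sets with an unadjusted p under 0.05 in males, and an adjusted p of 0.996. With Slc17a7 as a covariate it was 0.11 (SE 0.06). In females it was −0.03 (SE 0.07, adjusted p 0.968), and the difference between the sexes, 0.18 (SE 0.09), had a limma adjusted p of 0.872.

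Sst and Npy moved together over the arrays. Their deviations gave r = 0.85 (permutation p = 2e-05) and rho = 0.86 (p = 2e-05) over 23 arrays, with r = 0.84 in the 11 female arrays (p = 0.00582) and 0.87 in the 12 male arrays (p = 0.00065). Without the 2 arrays farthest from the median of Sst, r was 0.82, and with Slc17a7 taken out by regression it was 0.81. Each was near the top of the other's list of 22179 genes, with Npy at rank 2 for Sst and Sst at rank 1 for Npy.

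Nos1 followed them less evenly. With Sst it gave r = 0.54 (permutation p = 0.00931) and rho = 0.52 (p = 0.0193), and 0.48 without the 2 arrays farthest from the median of Sst. With Npy it gave r = 0.65 (permutation p = 0.00404) and rho = 0.64 (p = 0.00438), and 0.58 without male control replicate 2 and male knockdown replicate 3, the 2 arrays farthest from the median of Npy. In males alone r was 0.76 with Sst (permutation p = 0.0069) and 0.87 with Npy (p = 0.00124), and in females alone it was 0.16 (p = 0.623) and 0.005 (p = 0.99). The slope of Nos1 on Sst differed between males and females by 0.59 (SE 0.24), with a limma adjusted p of 0.596.

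In the fit across all probe sets with Sst as reference, 0% passed with a positive slope and 0% with a negative one, and so 0 of the other 9 interneuron genes. The unadjusted p from limma was 2.33e-06 for Npy and 0.0179 for Nos1. Their slopes were 0.87 for Npy (SE 0.14, adjusted p 0.0965) and 0.35 for Nos1 (SE 0.14, adjusted p 0.299). The call of Npy depended on the arrays and settings used. It was past the threshold without male control replicate 5 or male knockdown replicate 1 and under 2 other settings given with the alternatives.

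Genes most like Sst were Arsb (r = 0.86), Npy (0.85), Trp53inp2 (0.84), Mtmr9 (0.82) and Syn1 (0.82), and after Sst those most like Npy were Dapk1 (0.83) and Yipf1 (0.82). Adgrl1 (0.89), Moxd1 (0.85) and Cops7b (0.84) were the most like Nos1. The median absolute r with all genes was 0.218 for Sst, 0.203 for Npy and 0.187 for Nos1. Arsb is a lysosomal sulfatase and Syn1 a synaptic vesicle protein. Of the 10 measured receptors and partners of this class, 0 passed with Sst as reference, and their median slope was 0.11 beside 0.02 over all genes.

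Pvalb encodes parvalbumin, the calcium buffer of fast-spiking interneurons. It stood at 6.34, 6.63, 6.48, 6.94 and 6.93 in control females and between 6.30 and 6.75 (median 6.42) in females labelled knockdown. Male controls ran from 6.14 to 6.67 (median 6.51) and males labelled knockdown from 6.07 to 6.60 (median 6.30). In each sex 5 of 6 arrays labelled knockdown lay below the control mean, and the groups overlapped. The differences were −0.20 in females (SE 0.12, 95% interval −0.45 to 0.05) and −0.15 in males (SE 0.12, interval −0.39 to 0.09), with limma adjusted p of 0.883 and 0.996. Averaged over the sexes the difference was −0.17 (SE 0.08, unadjusted p 0.0502, adjusted p 0.98 by limma).

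Kit encodes the receptor of stem cell factor, which marks a subset of striatal interneurons and is also found in other cells. Control females stood at 8.33, 8.30, 8.30, 8.32 and 8.43 and females labelled knockdown between 8.10 and 8.26 (median 8.22). All 6 of the latter lay below all 5 controls. Of all probe sets, 0.588% had female groups that did not overlap (243), and 0.109% male groups (45). The female difference was −0.14 (SE 0.07, 95% interval −0.29 to 0.004), with an unadjusted p of 0.0559 and an adjusted p of 0.856 by limma, and did not pass.

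Male controls of Kit ran from 7.84 to 8.28 (median 8.16) and males labelled knockdown from 7.86 to 8.22 (median 7.99), and these groups overlapped. The male difference was −0.11 (SE 0.07, limma adjusted p 0.996). The average over the sexes, −0.12 (SE 0.05, 95% interval −0.23 to −0.02), had an unadjusted p of 0.0188 and an adjusted p of 0.98 by limma. In that average 1949 of the 41345 probe sets had an unadjusted p under 0.05, and 1 of the 10 interneuron genes, Kit. With Slc17a7 as a covariate the differences were −0.15 in females (SE 0.04) and −0.03 in males (SE 0.04), with limma adjusted p of 0.775 and 0.989.

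Lhx6 encodes a LIM homeodomain factor needed by interneurons from the medial ganglionic eminence. Its control females stood at 8.21, 8.12, 8.19, 8.29 and 8.44 and its females labelled knockdown between 8.09 and 8.45 (median 8.34). The male ranges were wider, 7.85 to 8.90 in controls (median 8.57) and 8.01 to 8.80 in the arrays labelled knockdown (median 8.30). All groups overlapped, and the differences were 0.05 in females (SE 0.16) and −0.11 in males (SE 0.15), with limma adjusted p of 0.988 and 0.996.

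Th encodes tyrosine hydroxylase, the first enzyme of dopamine synthesis. Its message is found in a small class of striatal interneurons, while most of the Th protein in the striatum lies in axons of midbrain neurons. The levels were 7.40, 7.04, 7.04, 7.06 and 7.15 in control females and 6.94 to 7.25 (median 7.15) in females labelled knockdown. In males they ran from 6.74 to 7.35 (median 6.86) and from 6.72 to 7.09 (median 6.83). The groups overlapped in both sexes, with differences of −0.005 in females (SE 0.10) and −0.09 in males (SE 0.10) and limma adjusted p of 0.997 and 0.996.

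**Figure D3:**
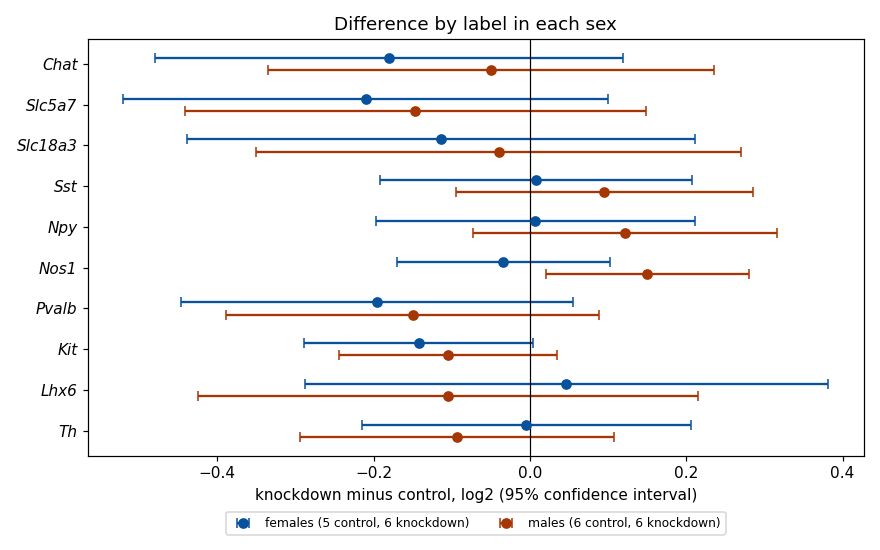
Difference in log2 level, arrays labelled knockdown minus controls (horizontal axis), for the 10 interneuron genes, with 95% confidence intervals from limma in females (5 control, 6 knockdown) and males (6 and 6). All intervals reach across 0 except that of Nos1 in males (0.02 to 0.28), and Kit in females ends just above 0 (−0.29 to 0.004).

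These 4 genes did not move as one class. Kit and Lhx6 gave r = 0.79 (permutation p = 0.00125) and rho = 0.69 (p = 0.00328) over 23 arrays, 0.65 without the 2 arrays farthest from the median of Kit, 0.43 in females alone (p = 0.226) and 0.84 in males alone (p = 0.00332). With Slc17a7 taken out by regression this r was 0.19 (permutation p = 0.42). Pvalb with Lhx6 gave r = 0.38 (permutation p = 0.0867) and rho = 0.38 (p = 0.0818), and Pvalb with Kit r = 0.28 (p = 0.21) and rho = 0.18 (p = 0.438). With Pvalb as reference, 0% of probe sets passed with a positive slope and 0% with a negative one, and 0 of the other 9 interneuron genes. Pvalb and Th were the dimmest of the 10, with 58.2% and 66.7% of probe sets at a lower mean, against 81.5% for Kit and 83.4% for Lhx6. Whether a dim signal limited their covariation was not tested. At an unadjusted p, Chat had 0.0352 by limma.

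The gene most like Lhx6 was Elfn1 (r = 0.98), a synaptic adhesion protein of interneurons from the same embryonic source, followed by Stk32b (0.95) and AI606473 (0.94). For Pvalb the nearest were Parva (0.82), Ccdc184 (0.79), Gm5941 (0.78), Xdh (0.77) and A930017K11Rik (0.74), for Kit they were Clcn5 (0.85), Klhl32 (0.85) and Trpm3 (0.85), and for Th they were Smyd3 (0.76), Gm5617 (0.76) and Gm16596 (0.75). The median absolute r with all genes was 0.161 for Pvalb, 0.213 for Kit, 0.21 for Lhx6 and 0.181 for Th.

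Across classes, the relations divided the genes into blocks. The 3 pairs within the cholinergic genes had r of 0.86 to 0.88 and the 3 pairs within Sst, Npy and Nos1 had r of 0.54 to 0.85. The 9 pairs of a cholinergic gene with Sst, Npy or Nos1 had a median r of −0.32 and were all negative (−0.54 to −0.09). The 12 pairs of a cholinergic gene with Pvalb, Kit, Lhx6 or Th were all positive, with a median of 0.57, and 7 had a permutation p under 0.05. With Slc17a7 taken out by regression 10 of these 12 were positive, with a median of 0.33, and 3 had p under 0.05. Over all arrays, Lhx6 was as close to the cholinergic genes as Npy was to Sst. Its r was 0.81 for Chat, 0.86 for Slc5a7 and 0.87 for Slc18a3. With Slc17a7 taken out these were 0.50, 0.62 and 0.64. In females alone they were 0.42 (permutation p = 0.261), 0.63 (p = 0.0443) and 0.57 (p = 0.0894), and in males alone 0.96, 0.90 and 0.91. Sst with Npy gave 0.84 in females alone and 0.87 in males alone. Kit with the cholinergic genes gave 0.20 to 0.41 in females alone and 0.76 to 0.91 in males alone. Over all 45 pairs and all arrays the median r was 0.16.

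Of these 9 negative relations, 2 had a permutation p under 0.05 for Pearson's r. Both lay inside the 95th percentile of absolute r with all genes, which was 0.631 for Slc5a7, 0.599 for Chat and 0.558 for Npy. Slc5a7 with Npy gave r = −0.54 (permutation p = 0.013) and rho = −0.47 (p = 0.0321), and −0.53 without the 2 farthest arrays. In females alone r was −0.52 (permutation p = 0.108) and in males alone −0.56 (p = 0.0598). Chat with Npy gave r = −0.49 (permutation p = 0.0373) but rho = −0.35 (p = 0.135), and r was −0.20 without the 2 farthest arrays (p = 0.422), so that relation rested on female knockdown replicate 3 and male control replicate 2. With Slc17a7 taken out, 5 of the 9 cross-class pairs were positive, with a range of −0.30 to 0.50 and a median of 0.09.

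**Figure D4:**
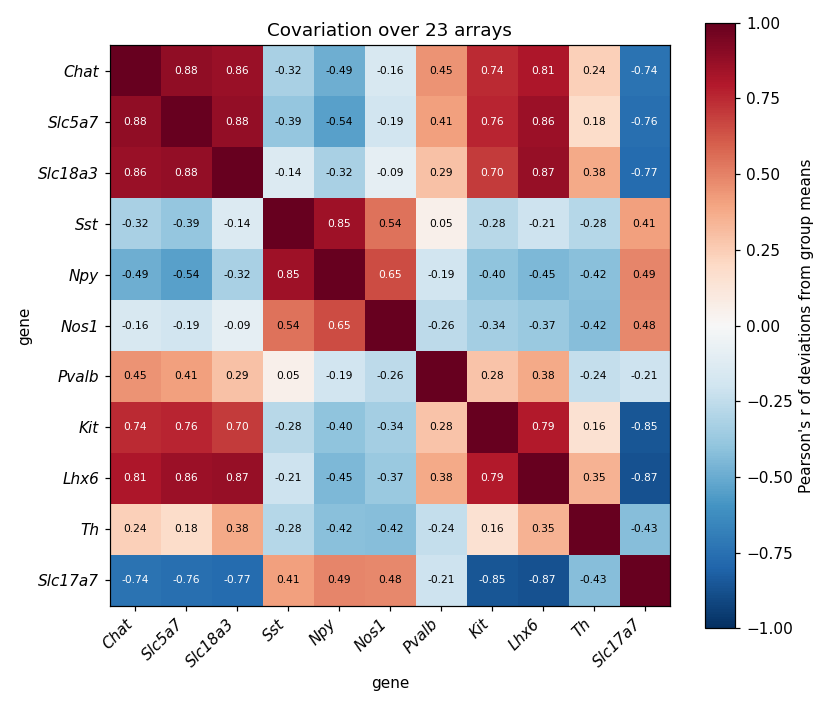
Pearson's r of deviations from group means over 23 arrays for each pair of the 10 interneuron genes and Slc17a7 (rows and columns), from blue (−1) to red (1). The cholinergic genes form a red block with Kit and Lhx6 (0.70 to 0.88), Sst, Npy and Nos1 form another (0.54 to 0.85), and Slc17a7 is blue against the first block and pale red against the second.

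Slc17a7, the vesicular glutamate transporter of cortical excitatory neurons, marks cortical tissue and was set against each interneuron gene. It ranged from 9.40 to 11.05 in control females and from 8.92 to 11.13 in females labelled knockdown. In male controls it stood at 4.64, 5.43, 6.17, 8.01, 10.18 and 10.34 in ascending order, and in males labelled knockdown between 5.37 and 9.97 (median 8.97). The mean over 8 of 9 cortical excitatory neuron genes ran from 7.50 to 8.24 and from 7.38 to 8.44 in the female groups and from 6.19 to 8.33 and from 6.29 to 7.92 in the male groups. The male arrays thus spread far more widely than the female ones, and Slc17a7 itself did not pass the test by label. Its difference was −0.11 in females (SE 0.89, limma adjusted p 0.995) and 1.17 in males (SE 0.85, 95% interval −0.59 to 2.93, adjusted p 0.996). With Slc17a7 as a covariate the male differences of Chat, Slc18a3 and Lhx6 were 0.088, 0.116 and 0.0779 (limma adjusted p 0.989 for each), against negative values without it. The largest gap between sorted deviations was 22.5% of their range of 6.14, and the arrays were treated as 1 cluster.

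With Slc17a7 as reference, 5 of the 10 interneuron genes passed, all with negative slopes, while 1.55% of all other probe sets passed with a positive slope (640) and 1.6% with a negative one (661). A slope here is the log2 change per 1 log2 unit of Slc17a7. Among the 5, Lhx6 had the steepest, −0.16 (SE 0.02, limma adjusted p 8.03e-05), and Kit the shallowest, −0.06 (SE 0.01, adjusted p 0.00146). Chat stood at −0.12 (SE 0.02, adjusted p 0.00603), Slc5a7 at −0.12 (SE 0.02, adjusted p 0.00423) and Slc18a3 at −0.13 (SE 0.03, adjusted p 0.0029). The 3 cholinergic genes thus lay within 1 SE of each other. The slopes of Sst (0.04, SE 0.02, limma adjusted p 0.398), Npy (0.05, SE 0.02, adjusted p 0.244) and Nos1 (0.03, SE 0.01, adjusted p 0.309) were positive and did not pass. Pvalb (−0.03, SE 0.03, limma adjusted p 0.767) and Th (−0.05, SE 0.02, adjusted p 0.365) did not pass either.

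As correlations (10 relations, 23 arrays), Slc17a7 gave r = −0.87 with Lhx6 (permutation p = 0.00019, rho = −0.68, p = 0.00361) and −0.85 with Kit (p = 0.00034, rho = −0.79, p = 0.00021). With Slc18a3 it gave −0.77 (permutation p = 0.00236, rho = −0.69, p = 0.00132), with Slc5a7 −0.76 (p = 0.00181, rho = −0.66, p = 0.00252) and with Chat −0.74 (p = 0.00052, rho = −0.75, p = 0.00085). Without the 2 arrays farthest from the median of Slc17a7, male control replicate 6 and male knockdown replicate 6, these 5 values lay between −0.84 and −0.70. All 5 kept their direction there. With Npy r was 0.49 (permutation p = 0.0424, rho = 0.53, p = 0.0223), and 0.35 (p = 0.114) without those 2 arrays. In females alone, which hold neither of them, it was 0.60 (permutation p = 0.0709), and in males alone 0.50 (p = 0.121).

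The sexes were also examined one at a time. In males alone r was −0.95 for Lhx6 (permutation p = 9e-05), −0.91 for Kit (p = 0.00087) and −0.91 for Chat (p = 0.0006). In females alone it was −0.18 for Lhx6 (permutation p = 0.646), −0.39 for Kit (p = 0.283) and −0.25 for Chat (p = 0.471). The 5 slopes passed in males (limma adjusted p 5.6e-05 to 0.00997 with a slope for each sex) and not in females (0.929 to 0.973), but their difference between the sexes did not pass for any of the 10 genes, with a lowest adjusted p of 0.817. For Th, r was −0.75 in females alone (permutation p = 0.0127) and −0.38 in males alone (p = 0.289). Without male control replicates 1 and 6 together, Slc5a7 no longer passed with Slc17a7 as reference (limma adjusted p 0.0716) and the other 4 did.

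**Figure D5:**
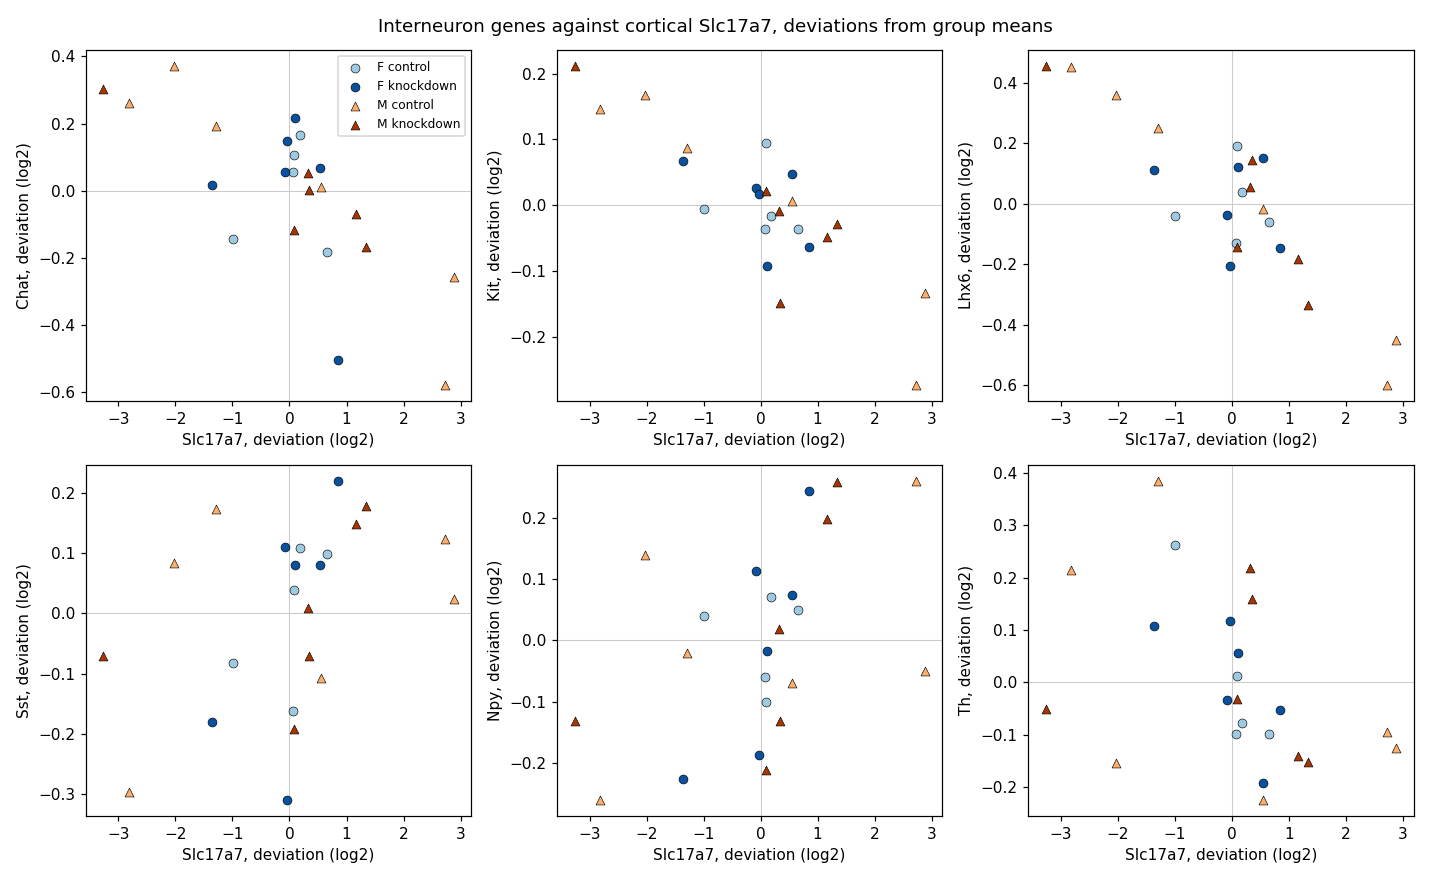
Deviations from the group mean (log2) of 6 interneuron genes (vertical axes) against that of Slc17a7 (horizontal axes), 1 point per array, coloured by group (F, female; M, male). Chat, Kit and Lhx6 fall as Slc17a7 rises (r of −0.74, −0.85 and −0.87), mainly along the male triangles, whereas Sst, Npy and Th show wide scatter (0.41, 0.49 and −0.43).

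Other interneuron and related genes were read from the same fit with Slc17a7. Of 11 measured cholinergic genes 6 passed with a negative slope (Ache, Slc10a4, Lhx8, Ecel1, Ngfr and Chrm2) and 0 with a positive one. Among these Lhx8 had the steepest slope (−0.20, SE 0.03, limma adjusted p 0.000218). All 3 measured genes of GABA synthesis and packaging fell with Slc17a7, namely Gad1 (−0.06), Gad2 (−0.06) and Slc32a1 (−0.08, SE 0.01, adjusted p 0.00215 by limma). Of the 10 developmental genes, a list that also holds Lhx6, 4 passed with a negative slope, including Nkx2-1 (−0.13, SE 0.02, limma adjusted p 0.000178), Sox6 and Elfn1, and Maf passed with a positive one (0.07).

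Of 10 measured genes of other interneuron classes 4 passed. Vip (0.26, SE 0.03, limma adjusted p 1.85e-05), Cck (0.70, SE 0.04, adjusted p 3.08e-10), Ndnf (0.19) and Rxfp1 (0.24) had positive slopes, and 0 passed with a negative one. Cck and Vip encode peptides of cortical interneurons, and Cck is also made by cortical excitatory neurons. Among 10 receptors and partners of the somatostatin class, the receptors Sstr2 (0.13), Sstr3 (0.09) and Sstr4 (0.16) and Nos1ap (0.07) passed with positive slopes, and Npy2r with a negative one (−0.22). Of the 7 other Pvalb genes and the 10 medium spiny neuron genes 0 passed. In the cortical list 4 of the 7 other measured genes passed with positive slopes, Neurod6 (0.60), Tbr1 (0.44), Neurod2 (0.43) and Fezf2 (0.34). Nr4a2 (0.47, limma adjusted p 1.97e-06) passed with a positive slope among 10 dopamine neuron genes. So did Lhx2 (0.09, limma adjusted p 0.0029) among 7 septal and pallidal genes and Slc1a2 (0.04, adjusted p 0.0358) among 7 astrocyte genes.

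By label, the lists of related genes had 0 members past the threshold in either sex. Of 11 other cholinergic genes 7 were lower in females labelled knockdown and 9 in males, with median differences of −0.05 and −0.03. The smallest unadjusted p in that list was 0.00757 for Slc17a8, the vesicular glutamate transporter of cholinergic interneurons, in females (−0.19, SE 0.06, limma adjusted p 0.839), and 0.0957 for Ngfr in males (−0.25, SE 0.14, adjusted p 0.996). The 10 other genes of the Sst, Npy and Nos1 class had median differences of 0.003 and −0.03, and the 7 other Pvalb genes −0.08 and 0.04. All 10 medium spiny neuron genes had positive differences in males (median 0.10), of which 0 passed. In females 4 of them were higher and 6 lower (median −0.02). Positive differences in males were also seen for all 7 microglial genes (median 0.10), all 6 vascular genes (0.03) and all 3 measured GABA genes (0.06).

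The promoter windows of all 10 interneuron genes (14 windows, since Pvalb, Kit and Lhx6 have several starts) were searched on both strands for 3 motifs. AGGTCA, the core that REV-ERB and ROR receptors bind, was in the windows of 0 of the 10 genes, and in 16.3% of all 32851 mouse windows of the same length. CACGTG was in that of Chat alone among the 10, and in 7.15% of all windows. TGACGTCA was in those of Sst and Th, 48 and 45 bases before the start, and in 1.79% of all windows. None of these motifs contains another, and a match describes only the letters in these windows.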

How the data were processed

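Gene expression was measured in micropunches of nucleus accumbens on 23 whole-transcript arrays, from 150 ng of RNA each, per the labels' protocols. The deposited table holds log2 intensities per probe set, 41345 probe sets by 23 arrays, and 0 of its value columns were left unused. The authors used Transcriptome Analysis Console, per the submitters' processing notes. Version, summarisation, normalization and build: not given in the sources used here. Scanner files and background signals were not used here, and the number of arrays limits the precision.

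Genes were named from probe sets with 1 symbol (23521, against 1814 with several and 16010 with none), taking the highest mean where a gene had several. Of these symbols 23328 were matched by Entrez number to GRCm38.p6, and 0 changed. All 23 arrays were fitted with limma 3.58.1 in R 4.3.3, two-sided, with 19 residual degrees of freedom and a prior of 3.24, and the fit was tested on simulated data. Covariation used the same model with a reference gene's level added. Correlations used scipy 1.17.1 and numpy 2.4.6. The limma p-values set a difference or slope against 1 estimate per probe set of the spread between arrays, shared by the 4 groups. Spread was not equal in all groups, as for Slc18a3, with an SD of 0.48 in male controls and 0.13 to 0.17 in the others.

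The interneuron genes, the lists and the alternatives were chosen with earlier results of these data known. The genes named were the 10 interneuron genes, Nr1d1, Slc17a7 and the genes most correlated with each interneuron gene (5 for Chat, Sst and Pvalb, 3 for each other). List members past the threshold were also named, and by label those of the other cholinergic genes with the smallest unadjusted p. Other cholinergic genes that did not pass with Chat as reference were named after their values were seen. Same-numbered control and knockdown arrays did not deviate together, with correlations of −0.0959 to 0.135, and replicate numbers were not used as pairs. Alternatives were another normalization, trend and robust settings, array weights, a filter on dim probe sets, a replicate block, Slc17a7 as a covariate, each sex alone and leaving out arrays.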

Additional observations from a re-analysis of the deposited data

Results flagged for a closer look

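Within each group, the highest and the lowest array of the 10 interneuron genes were compared with their nearest neighbour by Dixon's test at 95%. Over 40 combinations of gene and group 2 stood apart, and chance flags about 1 in 20. Chat in females labelled knockdown was lowest in replicate 3, at 6.95, while the nearest array stood at 7.47, a gap of 0.722 of the group's range. The same array was the lowest of its group for Slc5a7 (8.19) and Slc18a3 (7.57) and the highest for Sst (12.78), Npy (10.26) and Slc17a7 (11.13). Kit in control females was highest in replicate 5, at 8.43, while the nearest array stood at 8.33, a gap of 0.769 of the range. Without that array the other 4 controls, at 8.30 to 8.33, still lay above all 6 females labelled knockdown, whose highest value was 8.26.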

How the results depend on the processing

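By label, 0 of the 10 interneuron genes passed under every alternative run, and small differences changed sign. Sst in females became −0.00359 with quantile normalization within each sex, Lhx6 in females −0.024 with the replicate block, and Chat, Slc18a3 and Lhx6 in males 0.088, 0.116 and 0.0779 with Slc17a7 as a covariate. Leaving out each array in turn gave −0.166 to 0.0243 for Chat and −0.166 to 0.0517 for Slc18a3 in males, and −0.036 to 0.07 for Sst, −0.042 to 0.052 for Npy and −0.0292 to 0.0608 for Th in females. The count of probe sets past the threshold ran from 0 to 1 in females (1 without female knockdown replicate 1 or male knockdown replicate 4), in males and in the difference between the sexes (1 without male control replicate 1 or 5). That difference also gave 1 with array weights, and males and the difference gave 1 each without male control replicates 1 and 6 together.

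With Chat as reference, the replicate block left 35 probe sets and 2 of the 9 genes, Slc5a7 and Slc18a3, although the numbers do not pair the arrays. Female arrays alone and Slc17a7 as a covariate left 0 and 0, male arrays alone 259 probe sets, and the arrays without male control replicates 1 and 6 together 168. Single arrays moved the count of probe sets to 20 to 720 and that of the 9 genes to 2 to 4. Counts were over 1.5 times below 498 (297 and 201 together) without male control replicates 2 (20), 6 (263), 1 (264) and 3 (313), male knockdown replicate 6 (230) and female control replicate 3 (327). With Sst, quantile normalization gave 1 probe set, Npy, and trend and robust settings gave 2 including Npy. Leaving out 1 array gave 0 to 6 probe sets and 0 to 1 of the 9 genes. With Pvalb, Slc17a7 as a covariate gave 1 probe set. With Slc17a7, female arrays alone gave 171 probe sets and 0 of the 10 genes, male arrays alone 506 probe sets, the arrays without male control replicates 1 and 6 together 690, and single arrays left out 821 to 1437, lowest without male control replicate 2. The slope of Pvalb on Slc17a7 was 0.0935 in females alone, and its r was 0.30 in females alone and 0.056 without the 2 farthest arrays. The cause of these changes was not tested. The replicate block ended the calls of Lhx6 (limma adjusted p 0.07), Kit (0.178) and Slc17a7 (0.0811) with Chat as reference, and the 5 interneuron genes called with Slc17a7 stayed called. Leaving out male control replicates 1 and 6 together and Slc17a7 in the covariation fits were chosen after seeing the data. Averaging probe sets of a gene gave no new value, since each interneuron gene has 1.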
